A study of Mus musculus with 6 samples.

Results

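Interferon gamma and the receptors for interferon gamma, IL-12, IL-18 and IL-27 were examined in CD8 T cells that carried the activating receptor NKG2D or lacked it. The set was chosen by name, for its place in 1 cytokine circuit, with earlier results of these data known. It held Ifng, its receptor chains Ifngr1 and Ifngr2, and the IL-12 receptor chains Il12rb1 and Il12rb2. Also in it were the IL-18 receptor chains Il18r1 and Il18rap and the IL-27 receptor chain Il27ra. All 8 were found among the 23284 genes counted, and all 8 were among the 12951 genes that passed the filter on low counts. RNA was sequenced in 6 libraries of flow-sorted lymph node cells from 3 mice of the inbred strain C3H/HeJ, in which alopecia areata, an autoimmune loss of hair, is studied. Both groups shared the gate CD3+CD8+CD44+CXCR3+, which selects CD8 T cells of activated or memory phenotype, and were either NKG2D+ (3 libraries) or NKG2D- (3 libraries). No treatment, age or disease state of the mice is given in the sources used here.

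Interferon gamma is a secreted cytokine of NK cells and T cells, and it acts through a receptor of a ligand-binding chain (Ifngr1) and a signalling chain (Ifngr2) that engages JAK1 and JAK2. IL-12 binds a receptor of Il12rb1, which the IL-23 receptor shares, and Il12rb2, and signals through TYK2, JAK2 and STAT4, while IL-18 binds Il18r1 and Il18rap and signals through MYD88, IRAK kinases and TRAF6. In T cells IL-12 and IL-18 together are known to induce Ifng. IL-27 acts on a receptor of Il27ra and gp130, the product of Il6st.

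Promoter sequences of the members with the largest fitted differences, Ifng and Il12rb2, and of the neighbouring IL-18 receptor genes Il18r1 and Il18rap are shown because all 4 stood higher in every NKG2D+ library. Each is 300 bases long, from 250 before to 50 after an annotated start, from RefSeq (GRCm38.p6), and is written 5′ to 3′ on the gene's strand. Capitals mark matches to the TATA box TATAAA on the gene's strand, and on both strands to TCACAC (a T-box core), TGTGGT (a RUNX core), TTCNNNGAA (a STAT motif) and TGANTCA (an AP-1 motif). Of the 3 annotated starts of Il18r1, the most upstream one is shown.
Ifng, chr10:118440796-118441095, plus strand: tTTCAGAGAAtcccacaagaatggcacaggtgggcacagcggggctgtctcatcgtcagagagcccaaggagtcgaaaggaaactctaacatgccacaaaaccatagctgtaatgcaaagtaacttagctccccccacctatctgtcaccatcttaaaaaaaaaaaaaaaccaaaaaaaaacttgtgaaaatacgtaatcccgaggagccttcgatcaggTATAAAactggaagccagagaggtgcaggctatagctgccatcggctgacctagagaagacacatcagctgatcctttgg
Il12rb2, chr6:67376139-67376438, minus strand: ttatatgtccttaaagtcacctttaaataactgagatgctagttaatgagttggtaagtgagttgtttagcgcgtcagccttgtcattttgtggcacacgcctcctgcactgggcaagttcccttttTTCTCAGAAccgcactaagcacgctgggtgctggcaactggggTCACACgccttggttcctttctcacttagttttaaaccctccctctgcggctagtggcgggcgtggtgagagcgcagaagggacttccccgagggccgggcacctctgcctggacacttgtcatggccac
Il18r1, chr1:40465302-40465601, plus strand: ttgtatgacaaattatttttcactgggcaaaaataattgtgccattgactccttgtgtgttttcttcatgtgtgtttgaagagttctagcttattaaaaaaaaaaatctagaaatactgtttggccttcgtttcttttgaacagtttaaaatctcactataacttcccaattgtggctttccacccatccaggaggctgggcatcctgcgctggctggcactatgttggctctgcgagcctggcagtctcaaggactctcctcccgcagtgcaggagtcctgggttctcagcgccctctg
Il18rap, chr1:40515112-40515411, plus strand: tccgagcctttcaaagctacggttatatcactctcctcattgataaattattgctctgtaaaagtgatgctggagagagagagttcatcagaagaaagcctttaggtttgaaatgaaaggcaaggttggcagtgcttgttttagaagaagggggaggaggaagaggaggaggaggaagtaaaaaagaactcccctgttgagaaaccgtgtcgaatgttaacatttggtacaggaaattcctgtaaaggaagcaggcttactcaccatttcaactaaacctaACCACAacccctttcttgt

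The Ifng window held TATAAA and 1 STAT match, and the Il12rb2 window held 1 T-box core and 1 STAT match. One RUNX core lay in the Il18rap window, and none of the 5 motifs matched in the window shown for Il18r1. Windows of the Il18r1 starts not shown did hold matches, 1 RUNX core in start 2 and 2 STAT matches in start 3. Among 32851 promoter windows of this length, TATAAA was found in 8.32%, TCACAC in 14.5%, TGTGGT in 16.8%, TTCNNNGAA in 8.30% and TGANTCA in 7.81%. A match describes letters only and was not tested as a binding site. Windows were matched for 6 of 8 members, all but Il12rb1 and Il27ra.

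Libraries held 41168816 to 89184611 gene counts. Levels are given as CPM, read counts per gene scaled to a common library total after TMM normalisation, and the values of a group are listed in the order of libraries 1, 2 and 3. Klrk1, which encodes NKG2D, had 409, 312 and 342 CPM in the NKG2D+ libraries against 34.5, 37.1 and 36.1 CPM in the NKG2D- libraries. Genes of the shared gate were present in all 6 libraries, with Cd3e between 403 and 502 CPM and Cd8a between 1135 and 1934 CPM. NKG2D+ library 1 stood apart: its summed level of 10 B-cell markers was 469 CPM against 193 and 232 CPM in NKG2D+ libraries 2 and 3, and it held 430 CPM of Cd44 against 177 and 224 CPM. Cd44, a gene of the shared gate, was lower in NKG2D- libraries 1, 2 and 3, at 137, 136 and 133 CPM. Its log2 fold change was 1.03 (edgeR adjusted p = 0.13). Cd3d was instead lower in every NKG2D+ library (log2 fold change -0.18, edgeR adjusted p = 0.205). B-cell markers summed to 52.8, 171 and 124 CPM in NKG2D- libraries 1, 2 and 3, so that every NKG2D+ library was above every NKG2D- library. By edgeR 0 of these 10 markers passed the test, where 2.02% of all tested genes did. At an unadjusted p under 0.05 there were 9, where 21.1% of all tested genes were. The fitted log2 fold change was above 0 for all 10 (47.2% of all tested genes). The same shares stand beside the marker counts that follow. Summed markers of myeloid and dendritic cells were 94.9 to 143 against 77.9 to 83.3 CPM over 14 genes found, most of it from Cst3, with 0 of 11 tested passing by edgeR and 7 at an unadjusted p under 0.05 (5 higher, 2 lower). NK-cell markers without Eomes, which CD8 T cells also express, summed to 8.67 to 14.1 against 5.67 to 8.27 CPM over 8 genes. Of 6 tested, 1 passed, Ncam1, and 4 were at an unadjusted p under 0.05, all of them higher in NKG2D+ cells. Ncr1, a defining gene of NK cells, was low but higher in every NKG2D+ library, at 0.532, 0.570 and 0.596 against 0.126, 0.406 and 0.203 CPM. Innate-like T-cell markers summed to 10.4 to 18.2 against 1.91 to 8.30 CPM over the 4 genes found, most of it from Blk, a gene that B cells express too, and 0 of 3 tested passed (2 at an unadjusted p under 0.05). Markers of CD4 T cells summed to 53.9 to 139 against 65.1 to 75.4 CPM over 6 genes, and 0 passed (2 higher and 2 lower at an unadjusted p under 0.05). The part of these cells in the members' values was not tested, and in sorted bulk RNA a difference in the share of expressing cells cannot be told from one in RNA per cell.

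Between NKG2D+ and NKG2D- cells the largest fitted differences among the members lay in the cytokine gene Ifng, 5.17-fold higher in NKG2D+ cells, and in the IL-12 receptor chain Il12rb2, 3.78-fold higher. Il18r1 and Il12rb1 were 1.62-fold and 1.58-fold higher, Ifngr1 was 1.26-fold lower, and none of the 8 members passed the test. By edgeR's quasi-likelihood test with Benjamini-Hochberg adjustment over all 12951 genes, 0 of 8 had an adjusted p under 0.05, where 2.02% of all tested genes did. With the replicate number as a block 0 members were called as well (0.525% of all genes), and by limma-voom 0 (0.641%). DESeq2 called 4 members, all higher in NKG2D+ cells (Ifng, Il12rb1, Il12rb2 and Il18r1), where it called 11.4% of all genes and 7.89% as higher. Il12rb1 and Il12rb2 were called by edgeR with library size as the only scaling (2.48% of all genes) and without the filter on low counts (1.28%). At an unadjusted p under 0.05 all 8 were counted, where 21.1% of all genes were, and the log2 fold change was above 0 in 6 of 8, against 47.2% of all genes. In 7 of 8 members the CPM ranges of the groups did not overlap, where 29.1% of all tested genes did not. Of these, 5 were higher in NKG2D+ cells (15.1% of all genes) and 2 lower (14.1%). The median log2 fold change of the members was 0.68, beside -0.01 for all tested genes. As the set was chosen with earlier results of these data known, these shares and medians are descriptions, not tests of the set.

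**Figure D1:**
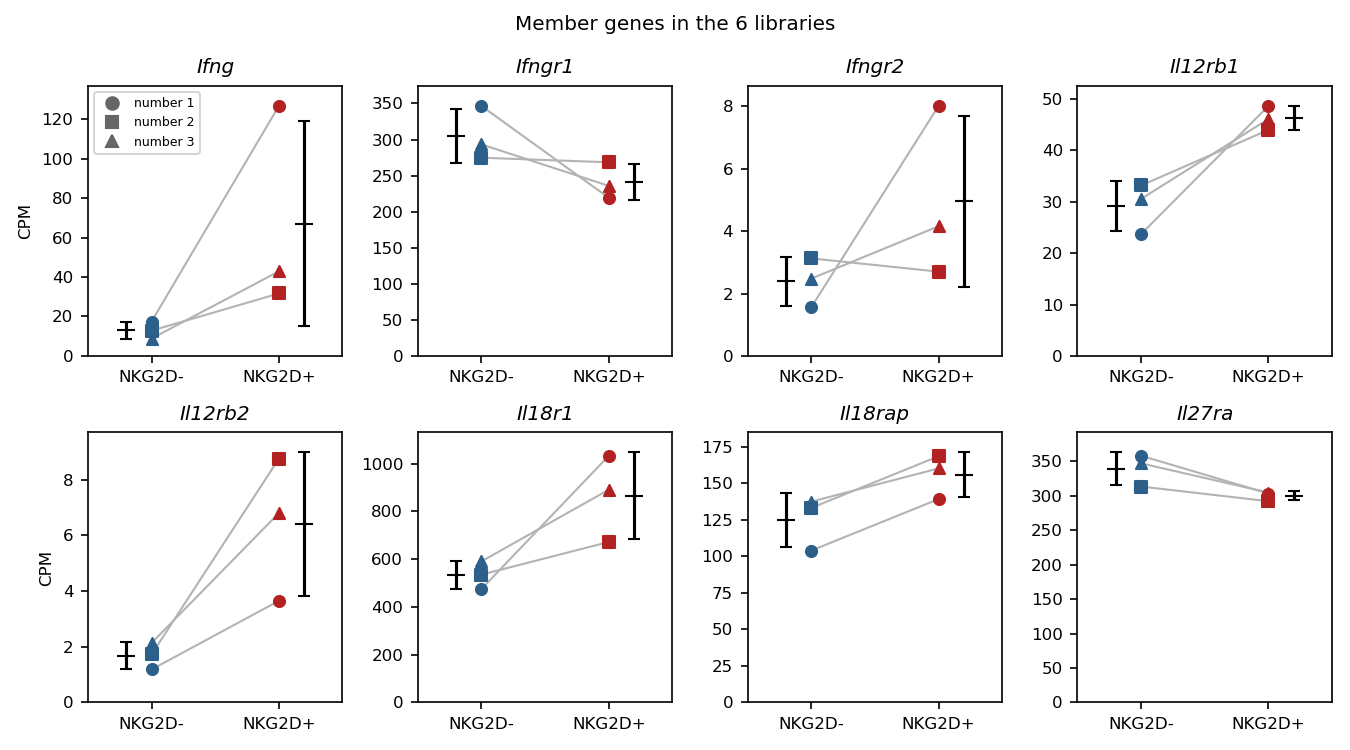
CPM of each member (y axis, from 0, with its own scale in each panel) in NKG2D- and NKG2D+ cells (x axis). Points are libraries, shapes and grey lines join libraries with the same replicate number, and black bars give the mean and SD (n = 3). NKG2D+ library 1 holds 127 CPM of Ifng and 8.02 CPM of Ifngr2, the highest of the 6 libraries for both, and the Ifngr2 ranges overlap.

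Ifng, the cytokine gene of the set, stood at 127, 31.6 and 42.9 CPM in NKG2D+ libraries 1, 2 and 3 and at 17.4, 12.8 and 8.81 CPM in NKG2D- libraries 1, 2 and 3. Every NKG2D+ library was above every NKG2D- library, and NKG2D+ library 1 was far above the other two. The means were 67.1 ± 51.9 against 13.02 ± 4.31 CPM (SD, n = 3 each), and the fitted difference was 5.17-fold. By edgeR the log2 fold change was 2.37 (SE 0.56, 95% interval 1.04 to 3.70, adjusted p = 0.0851). Within the pairs of same-numbered libraries, the NKG2D+ library had 7.27, 2.47 and 4.86 times the Ifng level of its partner. Without NKG2D+ library 1 the log2 fold change was 1.53 and the edgeR adjusted p 0.0489, without NKG2D+ library 2 they were 2.71 and 0.0372, and without both libraries of number 1 they were 1.78 and 0.0334, where 1.75% of all genes were called. In the other 6 fits that left out a library or a same-numbered pair, Ifng did not pass (edgeR adjusted p = 0.0757 to 0.611). Few genes of any kind passed in most of these 6: 15 without NKG2D+ library 3 and 0 without both libraries numbered 3. Without NKG2D- library 1, 2 or 3 they were 21, 13 and 8, and without both libraries numbered 2 they were 354. Not passing in a fit with so few calls does not show that a difference is absent, here and below.

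Ptms, which encodes parathymosin, was the gene whose log2 CPM over the 6 libraries was most like that of Ifng, with r = 0.999, among 9460 genes with a mean of at least 5 CPM. Next came Sik3, a kinase of the salt-inducible family, with r = 0.997, Tmcc1 with r = 0.997, the lysosomal beta-mannosidase gene Manba with r = 0.996 and Prr13 with r = 0.994. These correlations are descriptions over libraries that share mice, picked as the highest of many genes. The size of the difference was smaller in all 5, with a log2 fold change of 1.36 for Ptms and 0.26 for Sik3. By edgeR 0 of the 5 passed the test (2.02% of all genes), and all 5 had an unadjusted p under 0.05 (21.1%). Ifng itself separates the groups, so a low unadjusted p follows largely from how these genes were picked and is no separate result.

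Ifngr1, the ligand-binding chain of the interferon gamma receptor, had 219, 268 and 236 CPM in the NKG2D+ libraries against 347, 275 and 293 CPM in the NKG2D- libraries. Its levels were lower in every NKG2D+ library, although NKG2D+ library 2 and NKG2D- library 2 lay close together. Means were 241 ± 25.01 and 305 ± 37.2 CPM (SD, n = 3 each), with a log2 fold change of -0.34 (SE 0.11, 95% interval -0.61 to -0.07, edgeR adjusted p = 0.159). The signalling chain Ifngr2 was scarce, at 8.02, 2.70 and 4.16 CPM in the NKG2D+ libraries against 1.56, 3.13 and 2.48 CPM in the NKG2D- libraries. These values rest on 527, 242 and 321 counts against 62, 185 and 159 counts. Ranges of Ifngr2 overlapped, and in the pair numbered 2 the NKG2D+ library was the lower one, at 0.864 times the level of its partner. Its log2 fold change was 1.04 (SE 0.44, 95% interval 0.01 to 2.07, edgeR adjusted p = 0.232), 0.51 without NKG2D+ library 1 and 0.29 without both libraries numbered 1. Within each population the order of the libraries by Ifngr2 was that of their summed B-cell markers, 1, 3 and 2 from high to low in NKG2D+ and 2, 3 and 1 in NKG2D-. Il12rb1 had the same order of libraries in both populations, and Ifngr1 had the reverse order in both. Whether B cells contribute to the values of these genes was not tested.

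Il12rb2, the inducible signalling chain of the IL-12 receptor, had 3.65, 8.76 and 6.80 CPM in the NKG2D+ libraries against 1.18, 1.72 and 2.14 CPM in the NKG2D- libraries. All NKG2D+ libraries were higher, and NKG2D+ library 1, which was highest for Ifng, was the lowest of them for Il12rb2. The counts behind these values were 240, 784 and 525 against 47, 102 and 137. Means were 6.40 ± 2.58 and 1.68 ± 0.478 CPM (SD, n = 3 each), with a fitted difference of 3.78-fold, a log2 fold change of 1.92 (SE 0.37, 95% interval 1.05 to 2.79, edgeR adjusted p = 0.0536). Same-numbered pairs differed by 3.08, 5.08 and 3.18 times. Il12rb2 ranked 284 and Il12rb1 293 by p among the tested genes, of which 261 passed. In the GENCODE M21 annotation 40.0% of the exon bases of Il12rb2 are shared with the opposite-strand neighbour Serbp1. The library kit does not mark strand, so strand cannot tell which gene a read there came from. Whether such reads were counted for Il12rb2 is not known. Serbp1 had means of 497 ± 16.5 CPM in the NKG2D+ and 549 ± 20.9 CPM in the NKG2D- libraries (SD, n = 3 each), the opposite direction to Il12rb2.

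Il12rb1, the chain shared with the IL-23 receptor, had 48.6, 44.0 and 46.1 CPM in the NKG2D+ libraries against 23.7, 33.2 and 30.6 CPM in the NKG2D- libraries. NKG2D+ libraries lay close to each other and above all NKG2D- libraries. Within each population the libraries stood in the order of their summed B-cell markers, as for Ifngr2, and a part of B cells was not tested. Means were 46.2 ± 2.33 and 29.1 ± 4.89 CPM (SD, n = 3 each), with a fitted difference of 1.58-fold, a log2 fold change of 0.66 (SE 0.13, 95% interval 0.36 to 0.97, edgeR adjusted p = 0.054). Both IL-12 receptor genes had an adjusted p under 0.05 by edgeR without NKG2D+ library 1 (0.00660 for Il12rb2 and 0.0462 for Il12rb1), without NKG2D+ library 2 (0.0337 and 0.0303) and without both libraries numbered 1 (0.0207 and 0.0449). They did not pass in the other 6 fits that left out a library or a same-numbered pair, where the edgeR adjusted p was 0.112 to 0.563 for Il12rb2 and 0.0553 to 0.611 for Il12rb1. In most of these 6 few genes of any kind passed, as given for Ifng. Leaving out NKG2D+ library 1 raised the members called to 3, with Ifng, where 4.13% of all genes were called, and leaving out NKG2D+ library 2 raised them to 4, with Ifng and Il18r1, where 9.96% were called.

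Il18r1, the ligand-binding chain of the IL-18 receptor, had 1033, 672 and 891 CPM in the NKG2D+ libraries against 475, 535 and 591 CPM in the NKG2D- libraries. The groups did not overlap, with NKG2D+ library 2 nearest to the NKG2D- libraries. Means were 865 ± 182 and 534 ± 57.9 CPM (SD, n = 3 each), with a fitted difference of 1.62-fold, a log2 fold change of 0.70 (SE 0.16, 95% interval 0.31 to 1.09, edgeR adjusted p = 0.0841). Il18r1 passed in 1 of 9 fits that left out a library or a same-numbered pair, the one without NKG2D+ library 2 (log2 fold change 0.85, edgeR adjusted p = 0.0083), and the other 8 gave an adjusted p of 0.0515 to 0.611. Most of the other 8 had few calls among all genes, as given for Ifng. Il18rap, the accessory signalling chain, had 139, 168 and 160 CPM in the NKG2D+ libraries against 104, 133 and 137 CPM in the NKG2D- libraries. Its groups did not overlap either, but the highest NKG2D- library (137 CPM) and the lowest NKG2D+ library (139 CPM) were close. The log2 fold change of Il18rap was 0.32 (SE 0.13, 95% interval 0.03 to 0.62, edgeR adjusted p = 0.207).

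Il27ra, the IL-27 receptor chain, had 303, 292 and 305 CPM in the NKG2D+ libraries against 358, 314 and 347 CPM in the NKG2D- libraries. It was lower in every NKG2D+ library, by a small margin. Means were 300.2 ± 6.89 and 340 ± 23.3 CPM (SD, n = 3 each), with a log2 fold change of -0.18 (SE 0.07, 95% interval -0.35 to -0.01, edgeR adjusted p = 0.225). Il6st, which encodes its partner gp130, had the larger difference of the IL-27 receptor genes, at 85.5, 168 and 151 CPM in the NKG2D+ libraries against 242, 272 and 270 CPM in the NKG2D- libraries. Its groups did not overlap, and its log2 fold change was -0.96 (SE 0.23, 95% interval -1.51 to -0.40, edgeR adjusted p = 0.0895). Il6st passed without NKG2D+ library 1, without NKG2D+ library 2, without both libraries numbered 1 and by DESeq2. It did not pass in the other 6 fits that left out a library or a pair, nor with the replicate block, with the other scalings, without the filter or by limma-voom. Most of those 6 fits had few calls among all genes, as given for Ifng.

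**Figure D2:**
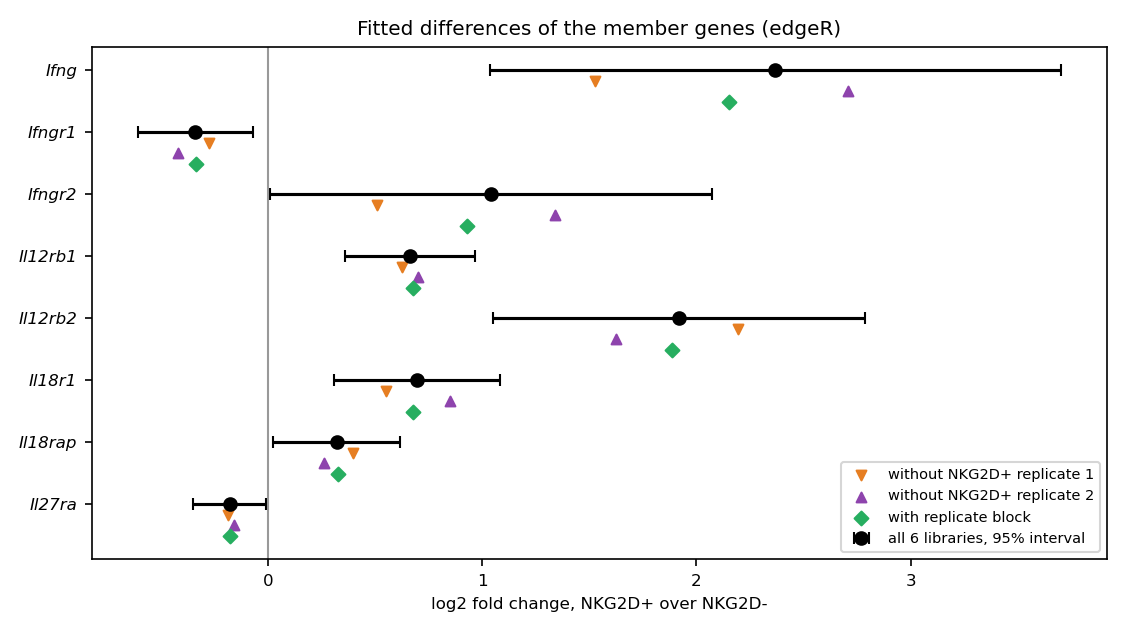
Fitted log2 fold change of each member by edgeR (x axis, NKG2D+ over NKG2D-), with the 95% interval from all 6 libraries (black) and the values without NKG2D+ library 1, without NKG2D+ library 2 and with the replicate number as a block (coloured symbols). Signs were the same in these 4 fits for each member, and Ifng moved from 2.37 to 1.53 without NKG2D+ library 1.

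The receptors have paired chains, so the ratio of their counts was compared within libraries, where it needs no scaling. Counts of Il12rb2 were 0.0751, 0.199 and 0.148 times those of Il12rb1 in NKG2D+ and 0.0499, 0.0520 and 0.0699 times in NKG2D- libraries 1, 2 and 3. This ratio was higher in every NKG2D+ library, by 1.20 on the log2 scale (-2.94 ± 0.72 against -4.14 ± 0.27, SD, n = 3), with a two-sided exact permutation p of 0.1, the lowest that 3 against 3 allows (adjusted p = 0.3 over 3 ratios). Ifngr1 had 27.4, 99.3 and 56.7 times the counts of Ifngr2 in NKG2D+ and 222, 87.9 and 118 times in NKG2D- libraries, with overlapping ranges (log2 difference -1.30, exact permutation p = 0.2, adjusted p = 0.3). For Il18rap over Il18r1 the ratios were 0.135, 0.2505 and 0.180 in NKG2D+ and 0.219, 0.248 and 0.232 in NKG2D-, again overlapping (log2 difference -0.35, exact permutation p = 0.4, adjusted p = 0.4).

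**Figure D3:**
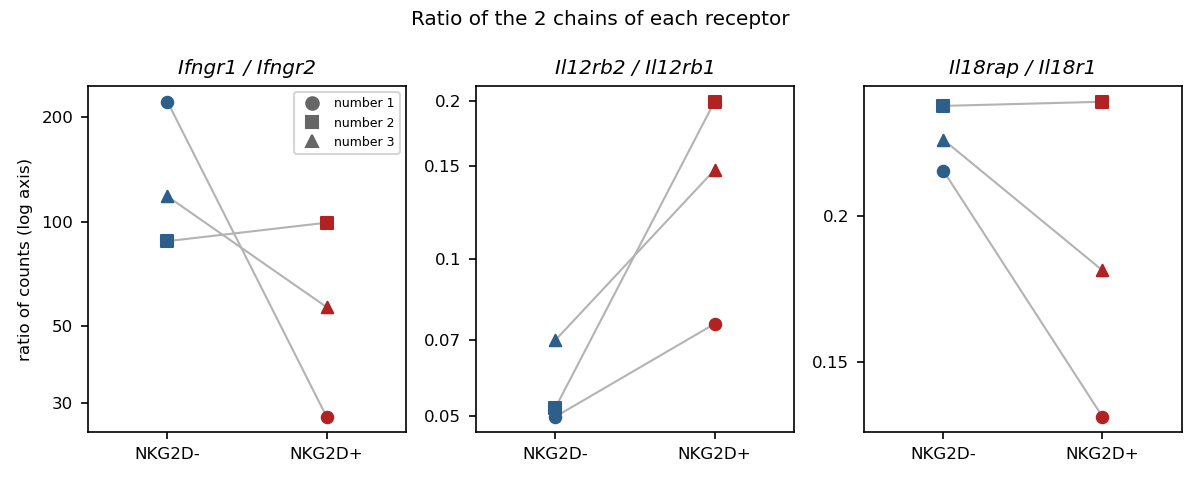
Ratio of the counts of the chains of the interferon gamma, IL-12 and IL-18 receptors (y axis, log scale) in NKG2D- and NKG2D+ libraries (x axis), with same-numbered libraries joined. Only the Il12rb2 over Il12rb1 ratio separates the groups, at 0.0751 to 0.199 against 0.0499 to 0.0699.

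To compare levels between genes, CPM was divided by the kilobases of merged exons in GENCODE M21, a GRCm38 annotation that may differ from the one used for counting. In NKG2D+ cells Il18r1 had the highest level per kilobase of the members, 180 ± 37.7 CPM per kilobase, followed by Ifngr1 at 114 ± 11.8 and Il27ra at 113 ± 2.59, which overlapped each other (SD, n = 3). Ifng came next at 55.5 ± 43.0, Il18rap at 31.9 ± 3.09 and Il12rb1 at 16.1 ± 0.812 CPM per kilobase, with the range of Ifng overlapping those of Ifngr1 and Il18rap. Il12rb2 at 1.69 ± 0.679 and Ifngr2 at 1.34 ± 0.740 CPM per kilobase were lowest and overlapped. In NKG2D- cells the order began with Ifngr1 at 144 ± 17.6, Il27ra at 128 ± 8.75 and Il18r1 at 111 ± 12.02 CPM per kilobase, each overlapping its neighbour. Below them Il18rap stood at 25.5 ± 3.72, then Ifng at 10.8 ± 3.57 and Il12rb1 at 10.1 ± 1.70 CPM per kilobase, which overlapped. Ifngr2 at 0.644 ± 0.212 and Il12rb2 at 0.443 ± 0.126 CPM per kilobase overlapped at the lower end. Whether reads in exon bases shared with other genes were counted is not known: these are 40.0% for Il12rb2 (with Serbp1) and 20.6% for Ifng (with Gm49751). If those reads were not counted, leaving the shared bases out would raise the level per kilobase of both genes. The order of Il12rb2 and Ifngr2 is therefore not settled. In both populations the inducible or signalling chains of the IL-12 and interferon gamma receptors were far below their partner chains.

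**Figure D4:**
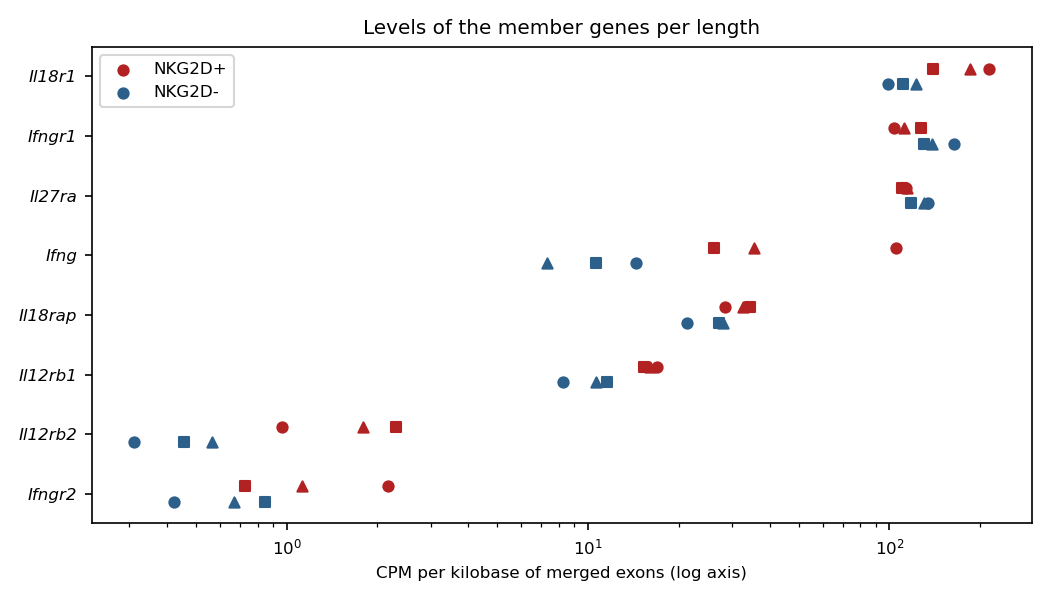
CPM per kilobase of merged exons (x axis, log scale) of the 8 members in NKG2D+ (red) and NKG2D- (blue) libraries, with circles, squares and triangles for replicate numbers 1, 2 and 3. Il12rb2 and Ifngr2 are at most 2.31 CPM per kilobase in any library, and Ifng spans 26.2 to 105 in NKG2D+.

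Other genes of the circuit were taken from lists of ligands, partner chains, signalling mediators, transcription factors, interferon gamma targets and chromosomal neighbours. By edgeR 0 of 61 tested genes passed, where 2.02% of all tested genes did. At an unadjusted p under 0.05, 10 were higher and 4 lower, a share near the 21.1% of all genes. DESeq2 called 6 of 60, near its 11.4% of all genes, and limma-voom called 0. For each list the gene with the smallest p is described.

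Of the ligands and soluble binders, Il12a, Il12b, Il18, Ebi3 and Il18bp were tested, while Il27 and Il23a were too low. Il18 had the smallest p, at 0.761, 0.436 and 0.738 CPM in the NKG2D+ libraries against 0.201, 0.355 and 0.187 CPM in the NKG2D- libraries, without overlap. Its log2 fold change was 1.36 (SE 0.39, edgeR adjusted p = 0.12). Levels were low throughout: Il12a reached 2.11 CPM at most, and Il18bp, which encodes the soluble inhibitor of IL-18, reached 4.38 CPM. The median log2 fold change of the 5 was 1.01, with 4 of them above 0. Il23r, which pairs with Il12rb1, was at most 0.220 CPM and was not tested.

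The 8 mediators of JAK-STAT signalling had a median log2 fold change of 0.06, with 5 above and 3 below 0. Socs3, a feedback inhibitor of cytokine signalling, had the smallest p, at 44.7, 77.3 and 57.3 CPM in the NKG2D+ libraries against 120, 105 and 90.6 CPM in the NKG2D- libraries, without overlap (log2 fold change -0.82, SE 0.20, edgeR adjusted p = 0.0917). Stat4, which relays the IL-12 signal and was named after its values were seen, stood at 121, 206 and 188 CPM in the NKG2D+ libraries against 230, 213 and 248 CPM in the NKG2D- libraries (log2 fold change -0.42, edgeR adjusted p = 0.262). Its groups did not overlap, and NKG2D+ library 1 was the lowest.

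For 13 genes of IL-18 signalling the median log2 fold change was -0.01, with 6 above and 7 below 0. Irak2, a kinase of the MYD88 pathway, had the smallest p, at 22.5, 17.8 and 17.6 CPM in the NKG2D+ libraries against 11.3, 13.4 and 11.4 CPM in the NKG2D- libraries. Its groups did not overlap, with a log2 fold change of 0.68 (SE 0.13, edgeR adjusted p = 0.0558), and it passed without NKG2D+ library 1, without NKG2D+ library 2, with library size only and by DESeq2. It did not pass in the other 7 fits that left out a library or a pair. Nor did it pass with the replicate block, with RLE size factors, without the filter on low counts or by limma-voom. Most of those 7 fits had few calls among all genes, as given for Ifng.

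Transcription factors that act on Ifng had a median log2 fold change of 0.16 over 9 tested genes. Hlx, a homeobox factor of type 1 T cells, had the smallest p, at 2.54, 0.771 and 1.92 CPM in the NKG2D+ libraries against 0.277, 0.304 and 0.0312 CPM in the NKG2D- libraries (log2 fold change 3.12, SE 0.74, edgeR adjusted p = 0.0848). Tbx21 and Eomes, the T-box factors of effector and memory CD8 T cells, were named after their values were seen. Tbx21 stood at 154, 157 and 154 CPM against 139, 116 and 130 CPM (log2 fold change 0.27, edgeR adjusted p = 0.126). Eomes stood at 140, 346 and 272 CPM against 287, 282 and 304 CPM (log2 fold change -0.20, edgeR adjusted p = 0.748), with NKG2D+ library 1 lowest of all 6.

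Targets of interferon gamma had a median log2 fold change of 0.17 over 20 tested genes, 15 of them positive. Tap1, the peptide transporter of the MHC class I pathway, had the smallest p, at 392, 327 and 333 CPM in the NKG2D+ libraries against 266, 291 and 270 CPM in the NKG2D- libraries (log2 fold change 0.35, SE 0.09, edgeR adjusted p = 0.0957), without overlap. Log2 fold changes of the list ran from -0.18 for the chemokine gene Cxcl9 to 1.35 for Ciita, which were named after their values were seen. Ciita, the master regulator of MHC class II, which B cells also express, stood at 57.6, 26.7 and 33.5 CPM against 6.35, 23.2 and 16.4 CPM (edgeR adjusted p = 0.18). Within each population its libraries stood in the order of the B-cell markers. Tap1, Irf8 and Cd274 had that order too, and the other tested targets did not. Whether B cells contribute to these genes was not tested.

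The list of chromosomal neighbours held 8 genes near Ifng and near the Il18r1 and Il18rap pair, and no neighbours of the other members. Il1rl1, next to Il18r1 in the GENCODE M21 gene order, was at most 0.515 CPM, and Slc9a4, on the far side of Il18rap, had 0 counts in all 6 libraries. Il22 and its close copy Iltifb, near Ifng, had 0 counts as well, but reads with several alignments were set aside in the files, so near-identical copies are uncertain. Il1r2, a decoy receptor for IL-1, had the smallest p of this list, at 0.0904 ± 0.00097 against 0.280 ± 0.0455 CPM (SD, n = 3 each, log2 fold change -1.62, edgeR adjusted p = 0.0682). These values rest on 6, 8 and 7 against 11, 14 and 21 counts, too few for such an SD to measure the spread. Mdm1 was the most abundant of the list, at up to 10.1 CPM.

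**Figure D5:**
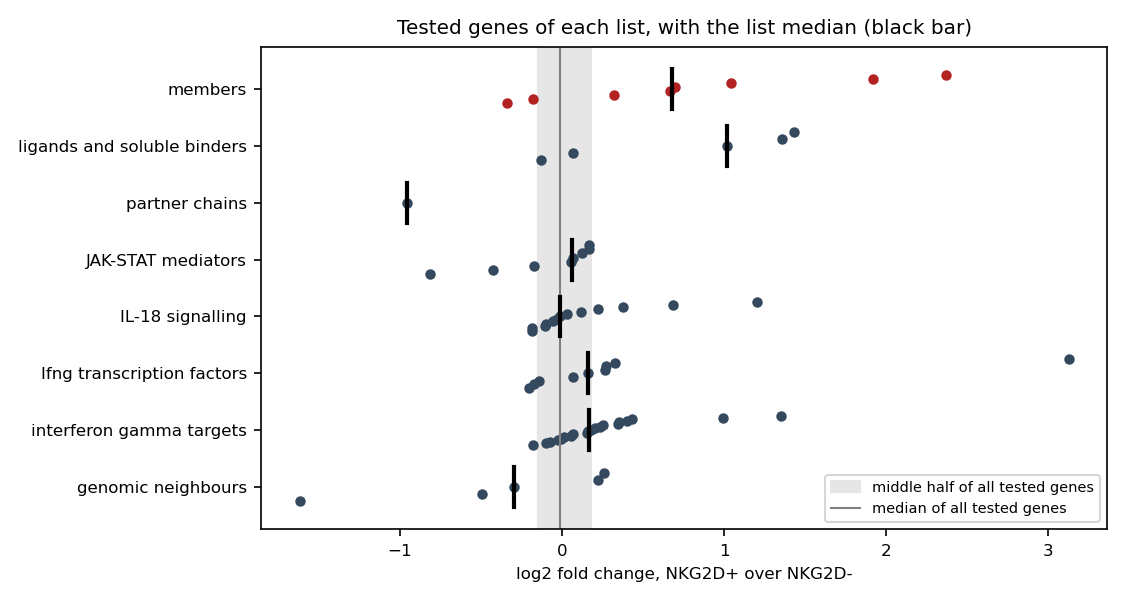
Log2 fold change of the tested genes of each list (x axis, NKG2D+ over NKG2D-), with a black bar at the list's median, a grey line at the median of all 12951 tested genes and a grey band over their middle range from -0.15 to 0.18. The median of the 8 members lies at 0.68, and those of the JAK-STAT, IL-18 signalling, transcription factor and target lists lie between -0.01 and 0.17. The ligand list has a higher median than the members, 1.01 over 5 genes. Partner chains (1 gene) lie at -0.96 and chromosomal neighbours (5 genes) at -0.30.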

How the data were processed

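The authors deposited raw read counts by gene symbol, with no normalisation, in 1 file for each of 6 libraries. Per the submitters' processing notes, CASAVA 1.8.2 and TopHat2 2.0.4 were used with the mm9 genome. The program that counted the reads, its annotation and its strand setting were not given in the sources used here. Summary counts that name no gene did not enter library sizes or tests. They comprised reads outside genes (14.0% to 15.9%), reads in several genes (0.715% to 0.836%) and reads with several alignments (19.7% to 26.2%).

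Counts were tested in R 4.3.3 with edgeR 4.0.16 (TMM, filterByExpr with count minimum 10 and total minimum 15, robust quasi-likelihood F-test with group as the only term), which kept 12951 of 23284 genes. P-values were adjusted by Benjamini-Hochberg over the genes tested, and 0.05 was the threshold. The standard error is the log2 fold change divided by the square root of F, and intervals use the moderated degrees of freedom. DESeq2 1.42.0, limma-voom (limma 3.58.1), other scalings, no filter, and leaving out each library or each same-numbered pair were alternatives. The test was tried on simulated counts, drawn independently for each library, and no result given here rests on that trial.

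Members and gene lists were chosen with earlier results of these data known. The naming rule took all members, the called genes of each list or its smallest p, and the 5 genes most like Ifng (0.01 CPM was added before taking log2). The series description speaks of 3 mice, and libraries with the same number were taken as 1 mouse. This pairing entered only the replicate block, the same-numbered pairs and the paired exact tests. The main test, with its standard errors and intervals, treated the 6 libraries as independent. Their deviations from group means correlated across genes with r = 0.25, 0.20 and 0.38. File names also give them the same lane tag, and a mouse cannot be told apart from its lane. No library was a copy: within a group, chi-square per degree of freedom was 40.7 to 235. With 3 mice, p-values measure the spread between these libraries only.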

Additional observations from a re-analysis of the deposited data

How the results depend on the processing

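The 8 members kept their direction, 6 higher and 2 lower in NKG2D+ cells, in all 15 alternative fits. The number of genes called in all was 261 and became 68 with the replicate block, 1442 by DESeq2 and 83 by limma-voom, and 0 to 1312 with libraries left out. The number of members called was 0 and became 2 with library size only, 2 without the filter on low counts (Il12rb1 and Il12rb2 in both), 4 by DESeq2, and 0 to 4 with libraries left out. Of the other circuit genes 1 was called with library size only (Irak2), 6 by DESeq2 and 0 to 7 with libraries left out. The replicate block changed no call of a member or of the other circuit genes, with adjusted p-values of 0.0557 for Il12rb2 and 0.0806 for Ifng by edgeR.

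The log2 fold changes that passed under an alternative were, by DESeq2, 2.37 for Ifng, 0.67 for Il12rb1, 1.93 for Il12rb2 and 0.70 for Il18r1. With library size only they were 0.75 for Il12rb1 and 2.00 for Il12rb2, and without the filter 0.66 and 1.92. The cause was not tested. Without both libraries numbered 1 they were 1.78 for Ifng, 0.50 for Il12rb1 and 2.01 for Il12rb2. With single libraries left out, the log2 fold change ran from 1.53 to 2.71 for Ifng, 0.53 to 0.76 for Il12rb1, 1.63 to 2.20 for Il12rb2 and 0.55 to 0.85 for Il18r1. With single libraries or same-numbered pairs left out, it ran from -0.48 to -0.17 for Ifngr1, 0.29 to 1.59 for Ifngr2, 0.50 to 0.81 for Il12rb1, 0.47 to 0.86 for Il18r1, 0.20 to 0.40 for Il18rap and -0.24 to -0.14 for Il27ra. Chain ratios kept their direction with each library left out, at -1.75 to -0.82 for Ifngr1 over Ifngr2, 0.89 to 1.60 for Il12rb2 over Il12rb1 and -0.58 to -0.13 for Il18rap over Il18r1. Paired exact tests of the ratios gave p = 0.5, 0.25 and 0.5, where 3 pairs allow no value below 0.25. Among the members depth limits Ifngr2 and Il12rb2 most, with 62 and 47 counts in NKG2D- library 1. Of the other named genes that were tested, Hlx, Il12a and Il12b had as few as 2 counts in a library.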
